A study of Mus musculus with 12 samples.

Results

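The liver of Abcb4(-/-) mice fed ursodeoxycholic acid (UDCA) for 9 weeks was set against Abcb4(+/+) liver on 6 Agilent whole mouse genome arrays, of 12 in the series. The members were the 6 hybridizations that the titles number 1 to 6 for UDCA, and the other 6 held Abcb4(-/-) mice fed cholic acid (CA) for the same time. Each array carried knockout RNA in one dye and wild-type RNA in the other, with the knockout in Cy5 on arrays 1 to 3 and in Cy3 on arrays 4 to 6. The arrays came from 5 livers without pooling, and 1 of arrays 4 to 6 repeated a liver already used with the dyes exchanged. The series' design text gives UDCA as the bile acid meant to lower disease activity and CA as the one meant to raise it. Dose, strain, sex and age are not given in the labels, nor are the wild-type diet and the hour at which livers were taken. Because no knockout liver on these arrays came from a mouse without added bile acid, the ratios cannot separate the loss of Abcb4 from UDCA. How far they hold an effect of UDCA depends on the wild-type diet. Signed values are knockout over wild type on the log2 scale, so that a ratio of 1 is a 2-fold rise, given with the standard error of the fit (6 arrays from 5 livers). A gene was called at a Benjamini-Hochberg adjusted p under 0.05 over all tested probes in limma, and "rose" and "fell" are used for called genes.

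Abcb4 is the transporter of the bile canaliculus that moves phosphatidylcholine into bile, where it shields the bile duct lining from bile acids. Without it bile injures the ducts, and mice lacking the gene develop ductular reaction and periductal fibrosis. UDCA is a hydrophilic bile acid used in cholestatic disease. Hepatocytes answer bile acids and electrophiles through nuclear receptors such as FXR (Nr1h4), CAR (Nr1i3) and PXR (Nr1i2) and through the transcription factor NRF2, which govern bile acid synthesis, drug metabolism and glutathione supply.

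The knocked-out gene was lower in the knockout RNA on 5 of 6 arrays by one probe and on 6 of 6 by the other. It was read by a pair of probes, printed here because they check the labels, and their positions are those of the scanner files (mm7, chromosome 5).
A_51_P249118: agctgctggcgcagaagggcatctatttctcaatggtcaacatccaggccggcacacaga
A_52_P223194: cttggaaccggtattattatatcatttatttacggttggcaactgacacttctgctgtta
The brighter probe (chr5:8996752-8996811) gave -1.06, 0.34, -1.91, -1.87, -1.37 and -1.81 on arrays 1 to 6, a fitted ratio of -1.28 ± 0.21 (limma adjusted p = 0.000322). Array 2 stood apart with a ratio above 0, and the spot was saturated on 3 arrays. The other probe (chr5:8978600-8978659) was at -1.77 ± 0.21 (limma adjusted p = 1.84e-05) and was lower on all 6 arrays. Which exons the knockout allele lacks is not stated, so these probes may or may not lie inside the deletion.

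Across the 6 arrays the median intensity lay between 250.2 and 584 in green and between 59.5 and 97.0 in red, and between 31.6% and 56.6% of spots per channel were well above background. Precision is limited by the number of arrays. The ratios depended on the dye. Across the tested probes, arrays 1 to 3 correlated with each other at 0.748 to 0.879 and arrays 4 and 5 at 0.815, while arrays 4 and 5 correlated with arrays 1 to 3 at 0.023 to 0.349. Array 6 correlated with the 5 others at 0.488 to 0.641. A dye term for each probe was therefore part of the fit and was called for 2792 of 21662 tested probes. Of 26 measured general hepatocyte genes, a check of the tissue, 20 had a saturated spot on 3 or more UDCA arrays, and the albumin gene ran from -4.28 through a median of 0.86 to 3.45 (0.02 ± 0.37, not called). The list's array medians ran from -2.05 to 0.92. It was 0.05 or higher on arrays 1 to 3 and -0.57 or lower on arrays 4 to 6, so the ratios of the brightest liver genes differed by dye. A saturated spot gives a lower bound for its intensity, so ratios of genes marked as saturated (in either dye, on 3 or more arrays) are imprecise.

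UDCA-fed knockout liver had more RNA of matrix, macrophage, cell division, glutathione and Cyp2b genes than wild-type liver, and less RNA of cholesterol synthesis, male-biased and clock output genes. The falls of these last 3 groups were mostly not called when each array was centred on its median. Counted once per gene by its brightest probe, 2647 of 15360 genes rose (17.2%) and 1349 fell (8.78%), 612 and 226 of them at least 2-fold. Of these, 2201 of the higher and 979 of the lower genes had the same sign on 6 of 6 arrays. The median ratio of all genes was 0.04. With median centring of each array used instead of loess, 1546 genes rose and 91 fell, and the median of all genes moved to 0.32. Of 204 called genes named in the text, 71 were not called under that scaling, 2 of them with the sign turned, among them Abcb4 itself, Gclc, Cyp7a1, Cyp8b1, Slc10a1, Nr0b2, Sqle and Bcl6 (limma adjusted p between 0.0682 and 0.387).

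Among called genes with the same sign on all 6 arrays, the 15 largest rises covered several cell types. Col1a1, a chain of type I collagen, ran from 2.78 through a median of 3.59 to 4.01 over the arrays, with a fitted ratio of 3.54 ± 0.29 (limma adjusted p = 5.75e-07). Its other probe rose less, at 0.77 ± 0.22 (limma adjusted p = 0.0164). Nid1, which links laminin to collagen in basement membranes (3.42 ± 0.20), and Mgp (3.05 ± 0.32), an inhibitor of calcification, are matrix genes too. Krt23 (3.29 ± 0.20) is a keratin and Bicc1 (3.18 ± 0.23) an RNA-binding protein of ducts. Cd36 (3.06 ± 0.17), a fatty acid transporter, and Cidec (3.06 ± 0.21), which enlarges lipid droplets, were next to each other in rank. Trem2 (2.96 ± 0.22) is a lipid receptor of macrophages, and Ubd (2.93 ± 0.20) a ubiquitin-like protein induced by inflammatory cytokines. The others were Ifi27l2b (3.46 ± 0.23), Fhl2 (3.18 ± 0.27), Ndrg1 (3.08 ± 0.15), Lysmd2 (2.87 ± 0.17), Plet1 (2.85 ± 0.19) and Elovl7 (2.80 ± 0.22), a fatty acid elongase.

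The largest fall among called genes with 1 sign on all 6 arrays was that of Hsd3b4, followed by the clone BC093515 (-4.61 ± 0.30). Hsd3b4 (-4.74 ± 0.18) and Hsd3b5 (-4.11 ± 0.27), a pair of hydroxysteroid dehydrogenases, ran from -5.12 through a median of -4.98 to -3.61 and from -4.50 through a median of -4.29 to -3.55 over the 6 arrays. The probes ENSMUST00000098050 (-4.50 ± 0.37) and LOC620807 (-4.23 ± 0.44, saturated on 4 arrays) are described in the scanner files as similar to a major urinary protein gene, a family whose copies are nearly identical, so which copy they read is uncertain. The others of the 15 were the pseudogene Serpina4-ps1 (-4.35 ± 0.31), Adgrv1 (-3.96 ± 0.16), the uridine phosphorylase Upp2 (-3.79 ± 0.19), the organic anion carrier Slc22a7 (-3.18 ± 0.23), Lrtm1 (-3.18 ± 0.25), the retinol dehydrogenase Rdh16f2 (-3.13 ± 0.18), the liver collectin Colec10 (-2.94 ± 0.24), the oxysterol hydroxylase Cyp7b1 (-2.89 ± 0.25, saturated on 3), the replication factor Mcm10 (-2.87 ± 0.20), and Slc17a8 (-2.75 ± 0.19).

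**Figure D1:**
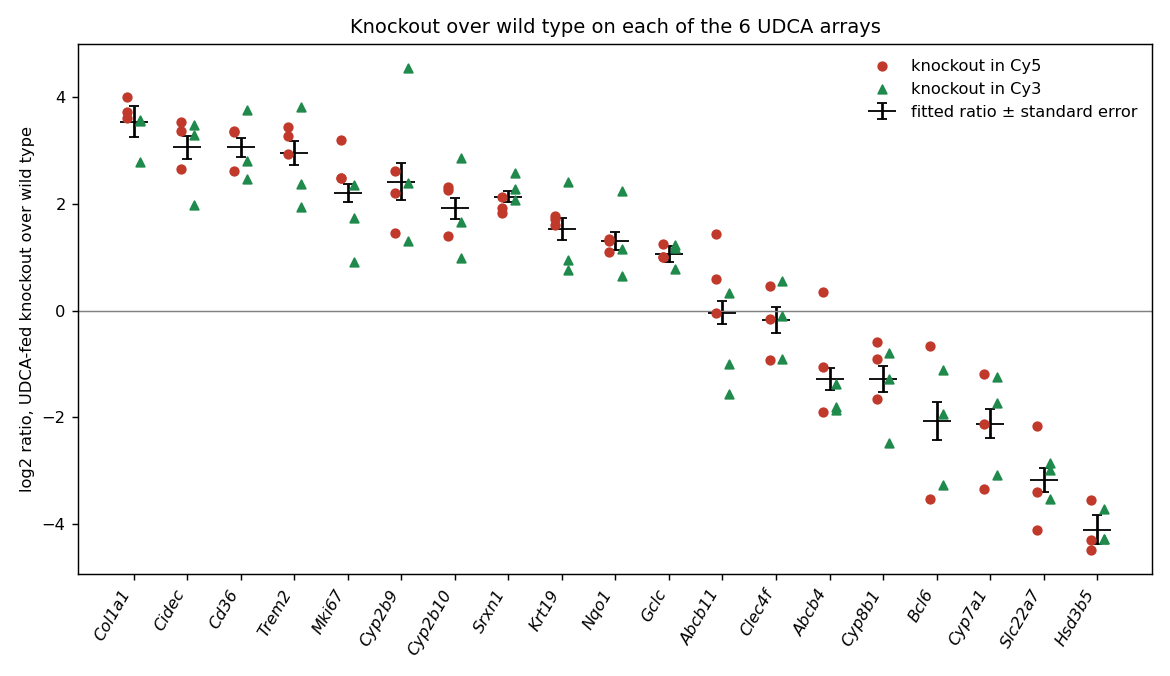
Log2 ratios of UDCA-fed knockout over wild type (vertical axis) of 19 named genes on each of the 6 UDCA arrays, red circles with the knockout in Cy5 and green triangles with it in Cy3; black bars are the fitted ratio with its standard error. Col1a1 lies above 0 and Hsd3b5 below 0 on every array, while Abcb4 has 1 array above 0.

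Glutathione and NRF2 genes rose in UDCA-fed knockout liver. Of 35 measured members, 19 rose and 0 fell, 54.3% against the 17.2% of all genes, with a median of 0.49 beside 0.04 for all genes. Of the 35 members, called or not, 19 had a saturated spot on 3 or more UDCA arrays. Srxn1, the reductase that repairs overoxidized peroxiredoxins, ran from 1.83 through a median of 2.10 to 2.59 over the arrays. Its fitted ratio was 2.14 ± 0.10 (limma adjusted p = 8.84e-09), and all 6 arrays were above 0. Gclc, the catalytic subunit of the enzyme that limits glutathione synthesis, ran from 0.78 through a median of 1.08 to 1.25, with a fitted ratio of 1.07 ± 0.15 (limma adjusted p = 8.80e-05). The quinone reductase Nqo1 ran from 0.64 through a median of 1.23 to 2.24, fitted at 1.30 ± 0.17, and the carbonyl reductase Cbr3 (2.03 ± 0.15, 5 arrays) and the glutathione transferases Gsta2 (1.72 ± 0.36, 5 arrays, saturated on 3) and Gsta1 (1.58 ± 0.28, saturated on 4) rose as well. Gsta1 lay between 2.61 and 2.96 on arrays 1 to 3 and at -0.23, -0.05 and 1.49 on arrays 4 to 6, and Gsta2 at 3.06 and 3.09 on arrays 2 and 3 and at 0.09, -0.29 and 2.03 on arrays 4 to 6, so both differed by dye with arrays at or below 0. The median of the list was higher on arrays 1 to 3 (0.98 to 1.18) than on arrays 4 to 6 (0.18 to 0.32), and above 0 on all 6. The glutathione transferases form a family of close paralogs whose probes may read more than one copy. With median centring 9 of the 35 members rose and 0 fell.

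The bases before the start sites of Srxn1 and Ugdh are printed because both genes rose and hold an antioxidant response element motif there, the kind of site that NRF2 binds. Ugdh (1.43 ± 0.19), which makes UDP-glucuronate for conjugation, was chosen after its values were seen. The sequences are the 250 bases before the start in RefSeq (GRCm38.p6), Srxn1 at chr2:152105274-152105523 on the plus strand and Ugdh at chr5:65435843-65436092 on the minus strand. Capitals mark matches on either strand to TGACNNNGC or TGANTCAGC, a pair of patterns that can overlap.
Srxn1: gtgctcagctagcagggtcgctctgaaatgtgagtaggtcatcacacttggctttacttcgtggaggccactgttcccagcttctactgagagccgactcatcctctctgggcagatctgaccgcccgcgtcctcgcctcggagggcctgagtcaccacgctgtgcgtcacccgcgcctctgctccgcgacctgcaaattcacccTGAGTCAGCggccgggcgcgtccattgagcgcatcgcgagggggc
Ugdh: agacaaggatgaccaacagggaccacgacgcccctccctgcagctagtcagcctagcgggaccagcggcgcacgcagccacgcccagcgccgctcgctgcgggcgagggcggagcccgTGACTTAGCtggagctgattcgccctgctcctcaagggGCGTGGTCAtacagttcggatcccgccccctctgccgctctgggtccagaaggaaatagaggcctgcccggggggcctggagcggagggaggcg
Of the 35 members, 30 had such a window in RefSeq, and TGACNNNGC was found for 7 of them, against 11.5% of 27025 genes. TGANTCAGC was found for 4 of 30 against 1.17% of all genes. Of the 15 called members with a window, 4 held the first pattern and 1, Srxn1, the second. A match is a stretch of letters and not a measured binding site.

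Drug metabolism genes moved both ways, and the Cyp2b genes, the classic targets of CAR, were among the highest. Of 30 xenobiotic cytochrome P450 genes, 9 rose and 6 fell, with a median of -0.14. These shares were 30% and 20%, beside the 17.2% and 8.78% of all genes. A saturated spot on 3 or more UDCA arrays was found for 17 of the 30. The list split by dye, with array medians of 0.67 to 1.47 on arrays 1 to 3 and -1.18 to -0.44 on arrays 4 to 6, and the part of the dye in its single ratios beyond the fitted term was not tested. Cyp2b9 ran from 1.31 through a median of 2.30 to 4.55, fitted at 2.42 ± 0.34 (limma adjusted p = 8.38e-05). Cyp2b10 ran from 0.99 through a median of 1.96 to 2.87, fitted at 1.92 ± 0.20 (limma adjusted p = 5.66e-06), and Cyp2b13 ran from 1.39 through a median of 2.32 to 3.48, fitted at 2.30 ± 0.21. All 6 arrays were above 0 for each of these 3 genes. Because their transcripts resemble each other, 1 probe of each is printed, with positions on chromosome 7 in mm7.
Cyp2b9 A_52_P256914 (chr7:23095303-23095362): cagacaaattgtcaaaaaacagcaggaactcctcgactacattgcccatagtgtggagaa
Cyp2b10 A_52_P472486 (chr7:22691069-22691128): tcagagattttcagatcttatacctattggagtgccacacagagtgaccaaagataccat
Cyp2b13 A_52_P289091 (chr7:22992625-22992684): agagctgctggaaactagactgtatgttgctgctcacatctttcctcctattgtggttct
These probes, other than those that stand for the genes, gave 1.02 ± 0.26 for Cyp2b9 (higher on 5 of 6 arrays), 2.29 ± 0.22 for Cyp2b10 (6 of 6) and 0.96 ± 0.19 for Cyp2b13 (5 of 6), with limma adjusted p-values of 0.01, 2.18e-06 and 0.00193. They were called in the same direction, with smaller values than the brighter probes for Cyp2b9 and Cyp2b13.

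Cyp2c55 had the highest fitted ratio of the list, 3.81 ± 0.27, from 5 arrays because its spot was left out on the remaining one. The PXR target Cyp3a11 was at 0.58 ± 0.23 (limma adjusted p = 0.0897, not called), while Cyp3a16 (1.29 ± 0.30, 5 arrays, saturated on 4) and Cyp3a44 (1.09 ± 0.27, 5 arrays, saturated on 5) rose. Cyp2c54 (-2.37 ± 0.20, 5 arrays) and Cyp1a2 (-1.53 ± 0.36) fell. Of 33 conjugation, esterase and dehydrogenase genes, 7 rose and 5 fell, with a median of 0.09. These were 21.2% and 15.2%, beside the 17.2% and 8.78% of all genes. The flavin monooxygenase Fmo5 (1.0 ± 0.26) rose, and the sulfotransferases Sult5a1 (-2.20 ± 0.14) and Sult1b1 (-1.30 ± 0.18) and the carboxylesterase Ces1e (-1.07 ± 0.26, saturated on 6) fell. Nr1i3, the gene of CAR itself, fell (-1.12 ± 0.13).

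Among genes of bile acid synthesis 7 of 18 fell, among them both enzymes described next. Cyp7a1, which catalyses the rate-limiting step from cholesterol to bile acids, ran from -3.35 through a median of -1.93 to -1.19, fitted at -2.12 ± 0.27 (limma adjusted p = 3.88e-05). Cyp8b1, which adds the hydroxyl group that makes cholic acid, ran from -2.48 through a median of -1.09 to -0.59, fitted at -1.28 ± 0.24 (limma adjusted p = 9.97e-04). Together with Cyp7b1 (-2.89 ± 0.25, saturated on 3) and Cyp39a1 (-1.42 ± 0.20), 7 of 18 synthesis and conjugation genes fell and 0 rose. That was 38.9% and 0%, beside the 8.78% and 17.2% of all genes. The list's median was -0.21, and its array medians ran from -1.71 to 0.67. A saturated spot on 3 or more UDCA arrays was found for 11 of the 18. With median centring 1 of the 18 genes fell and 1 rose.

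Of 7 uptake carriers, 3 fell (42.9%) and 1 rose (14.3%), beside 8.78% and 17.2% of all genes. Slc22a7 ran from -4.12 through a median of -3.20 to -2.16, with all 6 arrays below 0. With median centring 1 carrier fell and 1 rose. Slc10a1, the sodium-dependent bile acid carrier (saturated on 3 arrays), ran from -1.65 through a median of -1.33 to -0.68, fitted at -1.28 ± 0.25 (limma adjusted p = 0.00164). Slco1a1 (-1.07 ± 0.14) fell while its paralog Slco1a4 (1.40 ± 0.15), which is induced by PXR and NRF2 activators, rose. Among 14 exporters, 6 rose (42.9%) and 3 fell (21.4%), Abcb4 being among the latter. Abcc4 (2.14 ± 0.20) and Abcc3 (1.68 ± 0.14, saturated on 3), ATP-driven pumps of the sinusoidal membrane, and Slc51b (1.37 ± 0.18), a subunit of the basolateral bile acid carrier, rose. The other probe of Abcc4 was at 0.07 ± 0.17 and was not called. The bile salt export pump Abcb11 (saturated on 5 arrays) ran from -1.56 through a median of 0.14 to 1.43, fitted at -0.04 ± 0.22 (limma adjusted p = 0.917), and its arrays lay on both sides of 0. The list's median of -0.12 lay -0.16 from the median of all genes, and 0.13 from it under median centring, so the side on which it lay changed with the scaling.

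Of 13 receptors and sensors, 5 fell (38.5%) and 1 rose (7.69%), beside 8.78% and 17.2% of all genes, with a median of -0.38. The repressor Nr0b2, a target of FXR, ran from -1.14 through a median of -0.82 to -0.21, fitted at -0.76 ± 0.15 (limma adjusted p = 0.00185). Hnf4a (-0.74 ± 0.21, 4 arrays), a master regulator of hepatocyte genes, and Fgf21 (-1.17 ± 0.31), a fasting hormone, fell too. The other probes of Hnf4a (-0.41 ± 0.21 and -0.39 ± 0.23) were not called, and its call was lost in 8 of 29 alternatives. With median centring 1 of the receptors and sensors fell and 0 rose. 4 of 17 phosphatidylcholine synthesis genes rose and 2 fell, close to the shares of all genes. The choline kinase Chka (1.22 ± 0.13) and the acyltransferase Lpcat2 (0.84 ± 0.18) rose, and Etnk2 (-0.76 ± 0.26, saturated on 5) and Mat1a (-0.73 ± 0.25, 5 arrays, saturated on 4), which makes the methyl donor of the methylation route, fell. The other probes of Chka (0.26, 0.44 and 0.37) and of Etnk2 (0.13) were not called. The call of Etnk2 was lost in 15 and that of Mat1a in 17 of 28 alternatives.

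Cholesterol synthesis enzymes fell as a group. Of 21 measured enzymes 13 fell and 0 rose, 61.9% against the 8.78% of all genes, with a median of -0.86. The squalene epoxidase Sqle ran from -2.11 through a median of -1.38 to -0.19, fitted at -1.27 ± 0.23 (limma adjusted p = 8.52e-04), and Lss (-1.42 ± 0.15) and Hsd17b7 (-1.31 ± 0.13), which act later in the pathway, fell too. With median centring 0 of the 21 were called, and their median lay -0.77 from that of all genes.

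SREBP2, the factor that switches these enzymes on, acts on promoters together with NF-Y, which binds the CCAAT box. Of the 21 enzymes, 16 had a window of 250 bases before a RefSeq start, and 15 of these held CCAAT on either strand, against 37.5% of 27025 genes. All 9 called enzymes with a window held it. The pattern TCACNCCAC, a form of the sterol regulatory element, was found for 1 of the 16, Hmgcs1, against 1.22% of all genes. The windows of Lss (chr10:76531355-76531604, plus strand) and Hsd17b7 (chr1:169969206-169969455, minus strand) in GRCm38.p6 are printed as those of the called enzymes named above that held CCAAT, in capitals on either strand.
Lss: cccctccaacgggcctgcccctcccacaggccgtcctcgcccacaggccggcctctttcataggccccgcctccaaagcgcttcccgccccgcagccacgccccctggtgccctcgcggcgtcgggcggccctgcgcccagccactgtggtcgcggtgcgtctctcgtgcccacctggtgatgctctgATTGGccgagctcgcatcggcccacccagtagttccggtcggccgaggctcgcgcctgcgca
Hsd17b7: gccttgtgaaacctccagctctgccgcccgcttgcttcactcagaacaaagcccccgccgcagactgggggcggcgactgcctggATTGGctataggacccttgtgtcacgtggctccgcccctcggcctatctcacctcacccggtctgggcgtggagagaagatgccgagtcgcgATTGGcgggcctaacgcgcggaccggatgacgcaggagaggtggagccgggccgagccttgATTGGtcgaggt
Lss held 1 copy and Hsd17b7 held 3. CCAAT is short and common, and the counts describe letters, not binding.

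Around these enzymes, 4 of 17 SREBP regulators and sterol uptake genes fell (23.5%) and 2 rose (11.8%), beside 8.78% and 17.2% of all genes. Insig1 (-1.43 ± 0.30), which is itself a target of SREBP, fell, while Insig2 (1.56 ± 0.19, saturated on 3), its paralog, rose. Stard4 (-1.86 ± 0.15), a sterol carrier, fell. Of 27 fatty acid synthesis and glycolysis genes, 9 fell (33.3%) and 2 rose (7.41%). The largest falls were those of Acacb (-1.71 ± 0.22), Thrsp (-1.51 ± 0.22, saturated on 6), Lpin1 (-1.35 ± 0.13) and Fads1 (-1.22 ± 0.32). With median centring 0 of the 27 fell and 2 rose.

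Some genes of lipid storage and uptake rose. Cidec ran from 1.99 through a median of 3.33 to 3.54, fitted at 3.06 ± 0.21 (limma adjusted p = 1.26e-07), and Cd36 ran from 2.46 through a median of 3.08 to 3.76, fitted at 3.06 ± 0.17 (limma adjusted p = 3.17e-08). All 6 arrays were above 0 for both. Lpl (2.66 ± 0.19), the lipase of circulating triglyceride, and Mogat1 (1.92 ± 0.23), a monoacylglycerol acyltransferase, rose too. Of 23 members, 10 rose (43.5%) and 0 fell, beside 17.2% and 8.78% of all genes, while the median, 0.13, was near that of all genes. Fatty acid oxidation genes gave 2 rises and 7 falls in 30 (6.67% and 23.3%), and 2 rises and 0 falls with median centring. Vnn1 (2.40 ± 0.24) and Pdk4 (2.12 ± 0.16), both PPAR-alpha targets, rose, and the thioesterase Acot1 (-1.64 ± 0.35, 4 arrays) fell. Of 20 apolipoprotein and lipoprotein genes, 2 fell and 0 rose, 10% and 0% beside the 8.78% and 17.2% of all genes. The falls were those of Saa4 (-0.83 ± 0.16) and the hepatic lipase Lipc (-0.52 ± 0.10).

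Genes known for higher expression in male than in female mouse liver fell, and part of the female-biased genes rose. In the male-biased list 12 of 18 fell (66.7%) and 1 rose (5.56%), beside 8.78% and 17.2% of all genes, with a median of -1.08. Its array medians ran from -2.23 to 0.44, with array 2 alone above 0. A saturated spot on 3 or more UDCA arrays was found for 11 of the 18. Beside Hsd3b5 and Cyp7b1, Susd4 (-2.05 ± 0.15) fell, as did the urinary protein gene Mup1 (-2.77 ± 0.45, saturated on 5), which lay between -2.41 and 0.30 on arrays 1 to 3 and between -5.76 and -3.75 on arrays 4 to 6, so its size is uncertain. In the female-biased list 6 of 17 rose (35.3%) and 1 fell (5.88%), with a median of 0.23. Cyp2b9, Cyp2b13, Cyp3a16 and Cyp3a44 were the highest. The 5 tested probes of 4 Y-linked genes (Ddx3y, Eif2s3y, Kdm5d and Uty, chosen after their values were seen) lay between -0.27 and 0.14 and 0 of them were called.

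Growth hormone, whose pulses set the male pattern, signals through STAT5. Of 15 genes of this pathway 8 fell (53.3%) and 1 rose (6.67%), beside 8.78% and 17.2% of all genes. Bcl6, a repressor that is higher in male liver, ran from -3.53 through a median of -1.94 to -0.67, fitted at -2.07 ± 0.36 (limma adjusted p = 9.75e-04), with all 5 measured arrays below 0. Igfals (-1.32 ± 0.17), which carries IGF1 in plasma, and Igfbp2 (-1.45 ± 0.17) fell, and Igfbp1 (1.41 ± 0.27) rose. With median centring 4 male-biased and 0 growth hormone genes fell, and the list medians stood -1.16 and -0.30 from that of all genes.

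Of 17 clock genes, 9 fell (52.9%) and 1 rose (5.88%), beside 8.78% and 17.2% of all genes. The list's median was -0.59, with array medians of -1.21 to -0.35. Ciart (-2.34 ± 0.15), Tef (-1.64 ± 0.20), Usp2 (-1.54 ± 0.23) and Per1 (-1.31 ± 0.22), all genes of large daily swing, had the largest falls. With median centring 1 clock gene fell and 1 rose. Whether knockout and wild-type mice were sampled at the same hour is not given, and its part in these values was not tested.

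**Figure D2:**
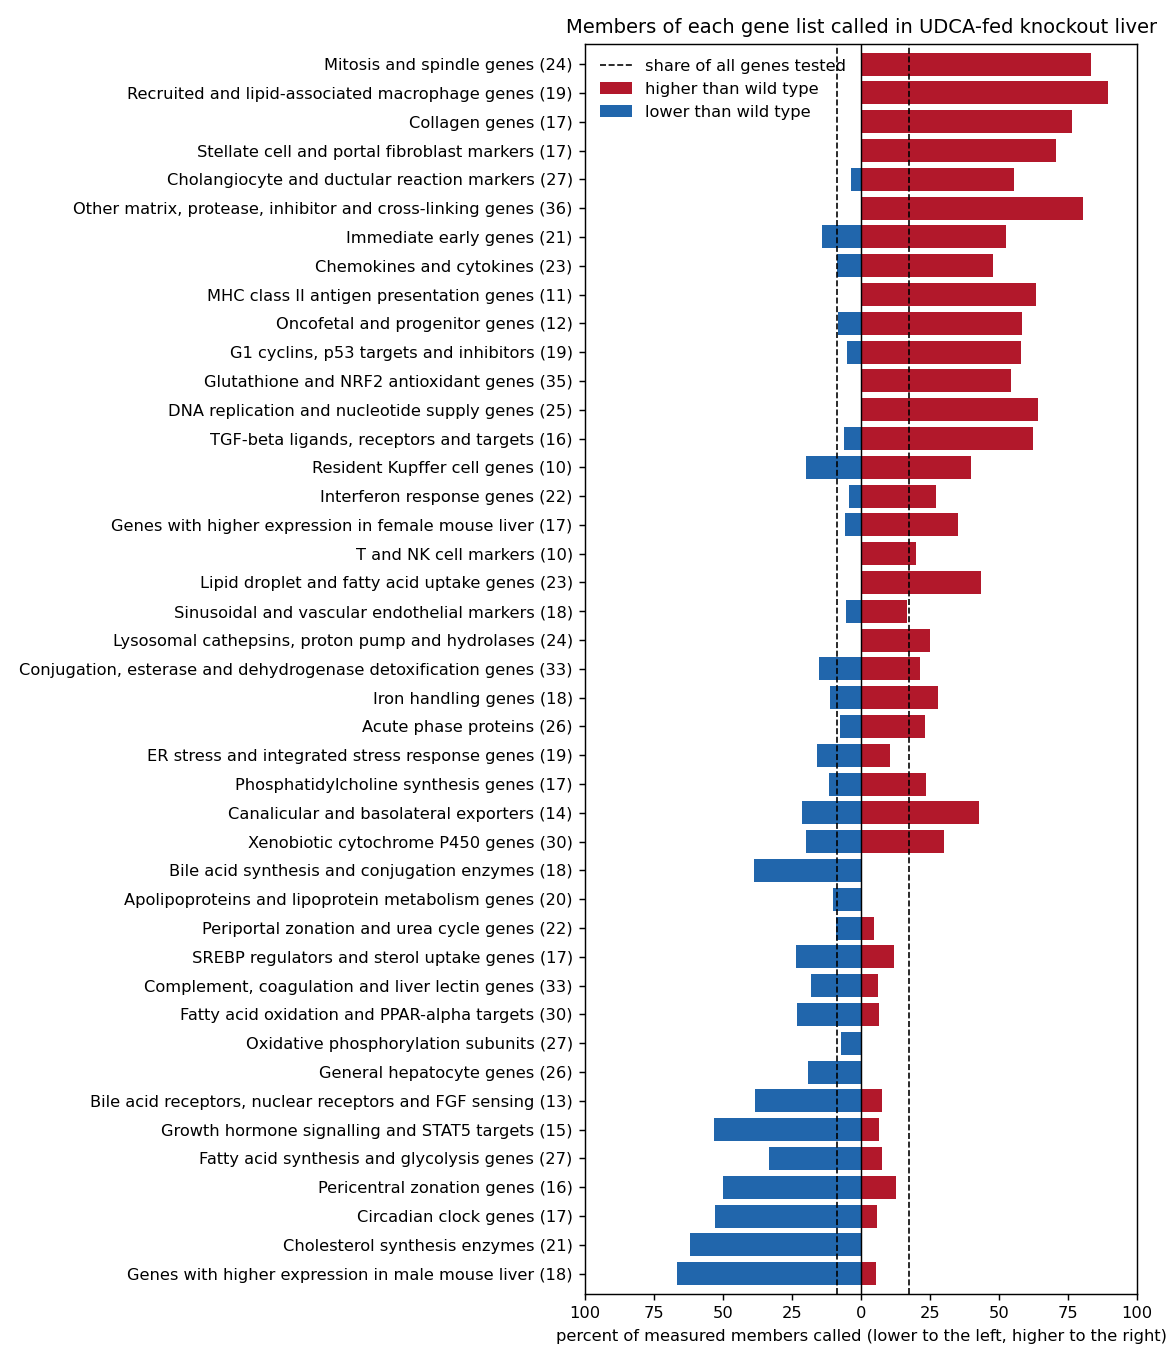
Percent of the measured members of each gene list (number in brackets, lists of 10 or more) called higher (red, to the right) or lower (blue, to the left) in UDCA-fed knockout than in wild-type liver, ordered by the list's median. Dashed lines mark the shares of all genes, 17.2% and 8.78%, and recruited macrophage, mitosis and matrix lists reach furthest right.

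Collagen and matrix genes rose. Among 17 collagens 13 rose and 0 fell, 76.5% against the 17.2% of all genes, with a median of 1.21. After Col1a1 came Col3a1 (2.92 ± 0.16, 5 arrays, saturated on 3), Col1a2 (2.49 ± 0.20) and Col6a3 (2.41 ± 0.12). Of 36 other matrix, protease and inhibitor genes 29 rose and 0 fell, led by Mgp, Sparcl1 (2.98 ± 0.25, 4 arrays), the proteoglycan Lum (2.73 ± 0.21) and Ccn2 (2.39 ± 0.18), a target of TGF-beta and YAP. Of 17 markers of stellate cells and portal fibroblasts, 12 rose and 0 fell, among them the PDGF receptor Pdgfrb (2.15 ± 0.17), the portal fibroblast ectonucleotidase Entpd2 (2.09 ± 0.13), S100a6 (2.30 ± 0.19) and vimentin, Vim (2.08 ± 0.18). In whole liver, more cells of a type and more RNA per cell cannot be told apart. Of 16 TGF-beta genes, 10 rose and 1 fell, including the ligand Tgfb3 (1.92 ± 0.17), the receptor Tgfbr2 (1.57 ± 0.16), Ltbp2 (1.83 ± 0.32) and the target Tgfbi (1.63 ± 0.16). The other probes of Col3a1 (0.14 ± 0.18) and Tgfbr2 (0.07 ± 0.13) were not called. With median centring 12 of the collagens and 26 of the other matrix genes rose.

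Bile duct markers rose in part. Of 27, 15 rose (55.6%) and 1 fell (3.7%), beside 17.2% and 8.78% of all genes, with a median of 0.88. Krt19, the keratin of bile ducts, ran from 0.76 through a median of 1.66 to 2.41, fitted at 1.53 ± 0.20 (limma adjusted p = 4.11e-05). Sox9, the transcription factor of biliary and progenitor cells, ran from 0.65 through a median of 1.01 to 2.41, fitted at 1.26 ± 0.21 (limma adjusted p = 4.54e-04). Krt23 and Bicc1 had the largest ratios of the list, followed by Anxa3 (2.01 ± 0.28) and Spp1 (2.00 ± 0.26, saturated on 3). Of 12 oncofetal or progenitor genes, 7 rose and 1 fell, led by Ly6d (2.77 ± 0.20, saturated on 3), the Golgi protein Golm1 (2.48 ± 0.18), the TWEAK receptor Tnfrsf12a (1.76 ± 0.26, 5 arrays) and Cd44 (0.98 ± 0.14).

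Recruited macrophage genes rose while resident Kupffer cell genes moved both ways. Of 19 recruited and lipid-associated macrophage genes, 17 rose and 0 fell, 89.5% against 17.2%, with a median of 1.21. Trem2 was followed by the endotoxin co-receptor Cd14 (2.50 ± 0.19), the tetraspanin Cd63 (2.42 ± 0.19) and Ms4a7 (2.25 ± 0.27). Ccr2, the receptor that draws monocytes from blood, ran from 0.50 through a median of 1.42 to 2.99, fitted at 1.46 ± 0.29 (limma adjusted p = 0.00162). Its other probe was at 0.19 ± 0.19 and was not called. Of 10 Kupffer cell genes 4 rose and 2 fell, 40% and 20% beside the 17.2% and 8.78% of all genes. With median centring 0 rose and 1 fell. The complement genes C1qa (0.72 ± 0.19) and C1qb (0.65 ± 0.18), which recruited macrophages make too, rose, and the scavenger receptors Cd163 (-1.61 ± 0.27) and Marco (-0.67 ± 0.16) fell. Cd5l, a secreted protein taken as a Kupffer cell marker, rose with all 6 arrays above 0 (0.58 ± 0.17, limma adjusted p = 0.0222). Its call was lost in 6 of 29 alternatives. Clec4f, a lectin of Kupffer cells, ran from -0.93 through a median of -0.12 to 0.55, fitted at -0.18 ± 0.24 (limma adjusted p = 0.658, not called), with arrays on both sides of 0.

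Of 23 chemokine and cytokine genes, 11 rose (47.8%) and 2 fell (8.7%), beside 17.2% and 8.78% of all genes. The highest were Cx3cl1 (2.44 ± 0.26), Cxcl14 (2.23 ± 0.21), the CCR2 ligand Ccl2 (2.22 ± 0.36) and Cxcl10 (1.52 ± 0.16, 5 arrays). MHC class II genes gave 7 rises and 0 falls in 11, with Ctss (2.01 ± 0.22, 4 arrays, saturated on 3), the protease of the invariant chain, at the top, followed by H2-Aa (1.17 ± 0.16), H2-Ab1 (1.13 ± 0.18) and H2-DMb1 (1.06 ± 0.12). With median centring 3 of the class II genes rose. Interferon response genes gave 6 and 1 in 22, 27.3% and 4.55% beside the 17.2% and 8.78% of all genes. All were small, with Usp18 (0.68 ± 0.14), Oasl2 (0.62 ± 0.20), Bst2 (0.58 ± 0.15, 5 arrays, saturated on 4) and Psmb8 (0.54 ± 0.14) the largest. T and NK cell markers gave 2 and 0 in 10, close to the share of all genes, the rises being Klrd1 (0.66 ± 0.17) and Cd3g (0.31 ± 0.11), the latter not called in 14 of 28 alternatives. Of 4 markers of B and plasma cells 1 rose and 0 fell, the rise being that of Blnk (1.09 ± 0.16, 5 arrays). Of 14 neutrophil genes listed 4 were measured, and S100a9 (1.16 ± 0.26) and Lcn2 (2.35 ± 0.15), which hepatocytes also make, rose. Endothelial markers gave 3 rises and 1 fall in 18, 16.7% and 5.56% beside the 17.2% and 8.78% of all genes. The rises were those of Egfl7 (0.32 ± 0.10) and, higher, Cd34 (1.82 ± 0.18) and Vwf (0.71 ± 0.13), a pair of vessel markers that the sinusoids of healthy liver largely lack. The fall was that of Kdr (-0.38 ± 0.11), whose ratio turned to 0.05 with median centring.

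Cell division genes rose. Of 24 mitosis and spindle genes 20 rose and 0 fell, 83.3% against 17.2%, with a median of 1.22. Mki67, the marker of cycling cells, ran from 0.92 through a median of 2.42 to 3.20, fitted at 2.20 ± 0.17 (limma adjusted p = 4.44e-07). Kif20a (2.42 ± 0.18), the APC activator Cdc20 (2.30 ± 0.20) and Birc5 (2.16 ± 0.17) rose alongside. Of 25 replication and nucleotide supply genes 16 rose and 0 fell, with a median of 0.48, led by the helicase subunits Mcm6 (1.93 ± 0.13, 4 arrays), Mcm4 (1.48 ± 0.17) and Mcm3 (1.32 ± 0.14) and the licensing factor Cdt1 (1.16 ± 0.13). With median centring 20 of the mitosis and 9 of the replication genes rose. Mcm10, which is no member of that list, was among the largest falls at -2.87 ± 0.20 and ran from -3.51 through a median of -2.81 to -2.16.

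G1 cyclins, p53 targets and inhibitors gave 11 rises and 1 fall in 19 (57.9% and 5.26%), beside 17.2% and 8.78% of all genes. The cyclin-dependent kinase inhibitor Cdkn1a (2.23 ± 0.22), Phlda3 (1.83 ± 0.16) and the stress hormone Gdf15 (1.0 ± 0.16) rose, as did Ccnd1 (0.93 ± 0.14). Immediate early genes gave 11 rises and 3 falls in 21 (52.4% and 14.3%). The rises were led by the nuclear receptor Nr4a1 (1.93 ± 0.16), Egr2 (1.84 ± 0.29), Egr1 (1.79 ± 0.21) and Jun (1.58 ± 0.15). ER stress genes gave 2 and 3 in 19, with Herpud1 (-0.81 ± 0.17, saturated on 6) and Chac1 (-0.73 ± 0.25) lower and Phgdh (0.60 ± 0.19) and Trib3 (0.52 ± 0.13) higher. The call of Chac1 was lost in 15 of 28 alternatives. The other probes of Phgdh (0.21 and -0.06) and of Trib3 (-0.05) were not called.

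Secreted liver proteins gave smaller counts. Of 26 acute phase genes 6 rose and 2 fell, 23.1% and 7.69% beside the 17.2% and 8.78% of all genes. Lcn2 and the serum amyloid genes Saa3 (1.59 ± 0.13) and Saa2 (1.18 ± 0.21, saturated on 3), which are close paralogs, rose, and metallothionein, Mt1 (-1.62 ± 0.22), fell. The other probe of Mt1 was at 0.14 ± 0.10 and was not called. Complement, coagulation and lectin genes gave 2 rises and 6 falls in 33 (6.06% and 18.2%). C8b (-1.14 ± 0.13) and F11 (-0.69 ± 0.14) fell with Colec10, and the anticoagulant protein S gene Pros1 (0.66 ± 0.12) rose. General hepatocyte genes gave 0 rises and 5 falls in 26, including the transcription factor Cebpa (-1.12 ± 0.35, 5 arrays), Hpd (-0.99 ± 0.25, saturated on 5) of tyrosine breakdown and the transport protein Ttr (-0.67 ± 0.13). With median centring 1 of the complement, coagulation and lectin genes and 0 of the hepatocyte genes fell.

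Genes of both liver zones were counted. Of 16 pericentral genes 8 fell and 2 rose (50% and 12.5%). Of 22 periportal and urea cycle genes 2 fell and 1 rose, 9.09% and 4.55% beside the 8.78% and 17.2% of all genes. The difference between the lists was not tested. With median centring 1 pericentral gene fell and 1 rose. The glutamate transporter Slc1a2 (-1.71 ± 0.15), glutamine synthetase, Glul (-1.25 ± 0.20), and the Wnt target Tbx3 (-1.40 ± 0.27) are pericentral, and Sds (-0.86 ± 0.16) and Ctsc (-0.86 ± 0.12) were the periportal falls. Cdh1 (1.58 ± 0.11), an epithelial cadherin, rose.

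In the remaining lists, lysosome genes gave 6 rises and 0 falls in 24, 25% and 0% beside the 17.2% and 8.78% of all genes. Among the rises were the hexosaminidase Hexa (1.67 ± 0.12), the cathepsin Ctsk (1.05 ± 0.19) and the galactosidase Gla (0.65 ± 0.12). Oxidative phosphorylation genes gave 0 and 2 in 27 (0% and 7.41%). The falls were those of Cyc1 (-0.61 ± 0.18, saturated on 3) and Ndufb5 (-0.40 ± 0.13), the latter at 0.03 with median centring. Iron genes gave 5 and 2 in 18 (27.8% and 11.1%). The transferrin receptor Tfrc (1.48 ± 0.19) and the haem oxygenase Hmox1 (0.53 ± 0.15) were higher. The metal carrier Slc39a14 (-0.77 ± 0.12) and the TGF-beta inhibitor Smad7 (-0.70 ± 0.21) were lower. Markers of neighbouring tissue and blood had 0 called rises. Pancreas genes gave 0 rises and 0 falls in 5 measured of 21 listed, adipocyte and muscle genes 0 and 0 in 3 of 12, and red blood cell genes 0 and 3 in 6 of 13, the falls being Alas2 (-0.99 ± 0.13), Klf1 (-0.78 ± 0.12) and Hba-a1 (-0.48 ± 0.16, saturated on 4), the last not called in 16 of 28 alternatives.

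**Figure D3:**
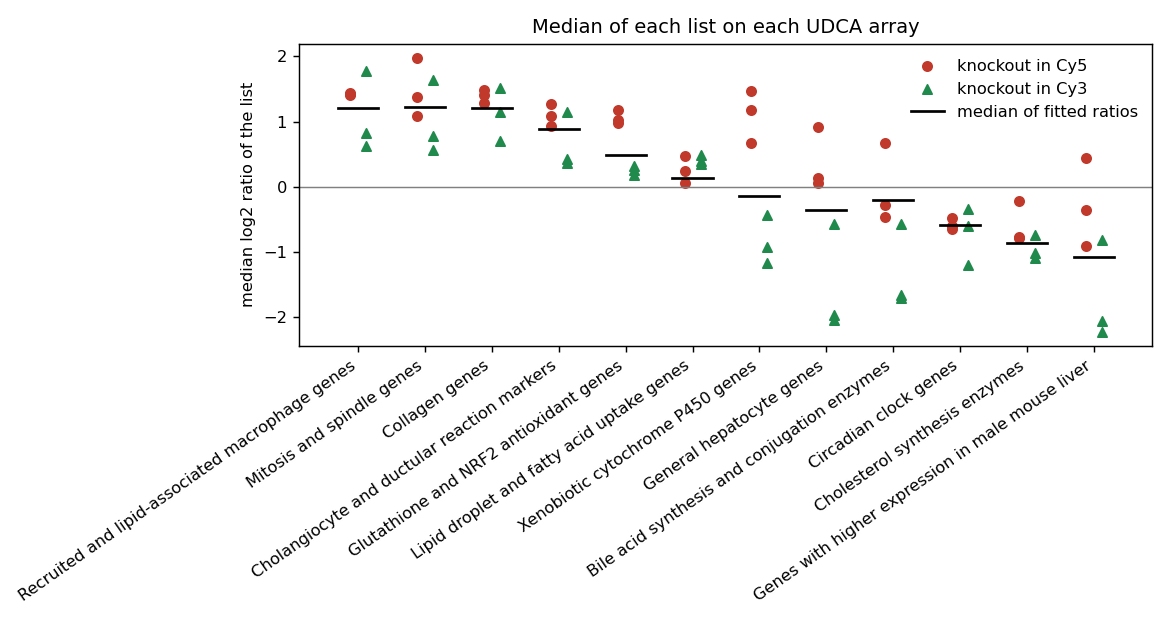
Median log2 ratio (vertical axis) of the members of 12 gene lists on each of the 6 UDCA arrays, red circles with the knockout in Cy5 and green triangles with it in Cy3; black bars are the medians of the fitted ratios. The general hepatocyte list spreads from -2.05 to 0.92 by dye, while the recruited macrophage list stays between 0.62 and 1.77.

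The UDCA ratios were set against those of the CA-fed knockout arrays to see where the bile acid made a difference. The comparison is indirect, since each diet was measured against wild-type RNA on its own arrays and the labels do not say whether the wild-type livers were shared. The fitted difference was called above CA for 1369 genes (8.91%) and below CA for 2884 (18.8%). Of the 2647 genes that rose with UDCA, 1065 (40.2%) were lower than with CA in the difference, 222 were higher and 1360 (51.4%) were not called. Of the 1349 that fell, 292 (21.6%) were higher than with CA, 109 were lower and 948 (70.3%) were not called. A total of 62 genes rose with UDCA and fell with CA, and 42 fell with UDCA and rose with CA, where 37.8% of all genes rose and 22.5% fell with CA. The arrays lay on 5 slides, and with the slide as a fixed block the difference was called above CA for 458 genes and below for 1195. Slides 3 (2 UDCA arrays, 1 CA array) and 4 (3 and 1) held both diets. Within slide 3, 93 of 94 called differences of genes named in the text kept their sign, all but Hsd17b7 (-0.15). Within slide 4, 91 of 93 did, all but Plet1 (0.14) and Spp1 (0.33). Spp1 (-0.20) and Abcc3 (0.05) were small within slide 3. These values rest on 1 CA array per slide, and the arrays are those of the fit. Of the 94 called differences of genes named in the text, 32 were not called with the slide as a fixed block, 63 with median centring, and 34 with scaling between arrays, where 1 more changed sign.

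The largest differences above CA, among genes called with UDCA whose measured UDCA and CA ratios did not overlap (3.11% of all genes above CA and 7.06% below), began with the Cyp2b genes Cyp2b9 and Cyp2b13. Cyp2b9 ran from -3.48 through a median of -2.25 to -0.60 with CA, a difference of 4.65 ± 0.48 (limma adjusted p = 2.64e-05; 2.63 within slide 3 and 4.70 within slide 4). Cyp8b1 ran from -5.45 through a median of -3.89 to -3.63 with CA, a difference of 2.89 ± 0.34 (limma adjusted p = 5.64e-05), so it was lower than in wild type in both diets, and less so with UDCA. Cidec ran from -0.69 through a median of 0.53 to 0.87 with CA, a difference of 2.74 ± 0.30 (limma adjusted p = 3.95e-05). Cd5l, a macrophage secreted protein, was 2.77 ± 0.24 apart (0.58 with UDCA and -2.19 with CA), and the thyroxine-binding globulin gene Serpina7 2.25 ± 0.35 (2.16 on 4 UDCA arrays and -0.09). The other genes of the 10 with the largest differences above CA were Cyp2b13 (3.64 ± 0.30), Cyp2b10 (2.36 ± 0.28), Ugt2b1 (2.27 ± 0.32), Mogat1 (2.23 ± 0.32) and the unnamed transcript NAP014233-001 (2.33 ± 0.23). With CA the printed probes of Cyp2b9, Cyp2b10 and Cyp2b13 were at -0.98, 0.11 and -0.09. Their differences from UDCA were called too (limma adjusted p = 0.00135, 0.000211 and 0.011). Clec4f, not called with UDCA, differed by 3.19 ± 0.34 from its CA value of -3.37.

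Below CA, Bcl6 had one of the largest differences. It ran from -0.16 through a median of 1.21 to 1.37 with CA, and the difference was -3.00 ± 0.51 (limma adjusted p = 0.00112; -4.32 within slide 3 and -1.52 within slide 4; adjusted p = 0.0606 with the slide as a fixed block and 0.0539 with median centring), so that it fell with UDCA and rose with CA. The planar polarity cadherin Celsr1 (-3.02 ± 0.21), the BH3-only cell death gene Bmf (-2.89 ± 0.41), Tbx1 (-2.72 ± 0.34), Tmem130 (-2.56 ± 0.33), Ms4a6b (-2.54 ± 0.26), the nutrient-sensing GTPase gene Rragd (-2.43 ± 0.33), Ptpn13 (-2.38 ± 0.34), Scara3 (-2.36 ± 0.27) and Sox9 (-2.43 ± 0.30) followed. By the rule these 10 genes were picked among those with every measured UDCA ratio below the lowest CA ratio, for Bcl6 on 5 UDCA arrays. The difference of Bmf rests on its brighter probe. Its other probe was at -1.65 ± 0.19 with UDCA and -1.30 with CA, and that difference was not called (limma adjusted p = 0.398).

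By list, and beside the 8.91% of all genes called above CA and the 18.8% below, the antioxidant genes gave 12 of 35 above CA and 2 below, and the xenobiotic cytochrome P450 genes 14 of 30 above and 1 below. Gclc was among them, with -0.63 under CA and a difference of 1.70 ± 0.21 (limma adjusted p = 8.66e-05). Lipid droplet genes gave 10 and 1 in 23, and Kupffer cell genes 5 and 1 in 10. In the other direction, bile duct markers gave 0 above and 17 below in 27 (63%), recruited macrophage genes 0 and 13 in 19 (68.4%), and replication genes 0 and 17 in 25 (68%). Mitosis genes gave 0 and 2 in 24, and cholesterol synthesis enzymes 3 and 0 in 21. Collagens gave 0 above and 9 below in 17 (52.9%), and other matrix genes 0 and 20 in 36 (55.6%). TGF-beta genes gave 0 and 9 in 16 (56.2%), and stellate cell and portal fibroblast markers 0 and 8 in 17 (47.1%). Col1a1 itself was at 3.54 ± 0.29 with UDCA and 3.08 ± 0.29 with CA, and their difference of 0.46 ± 0.41 was not called (limma adjusted p = 0.431). The 2 diets did differ by the other probe of Col1a1, at 0.77 with UDCA and 1.80 with CA (limma adjusted p = 0.0217). Cyp7a1 and Hsd3b5 differed by -0.18 ± 0.38 and -0.63 ± 0.39, and neither was called (limma adjusted p = 0.76 and 0.245).

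**Figure D4:**
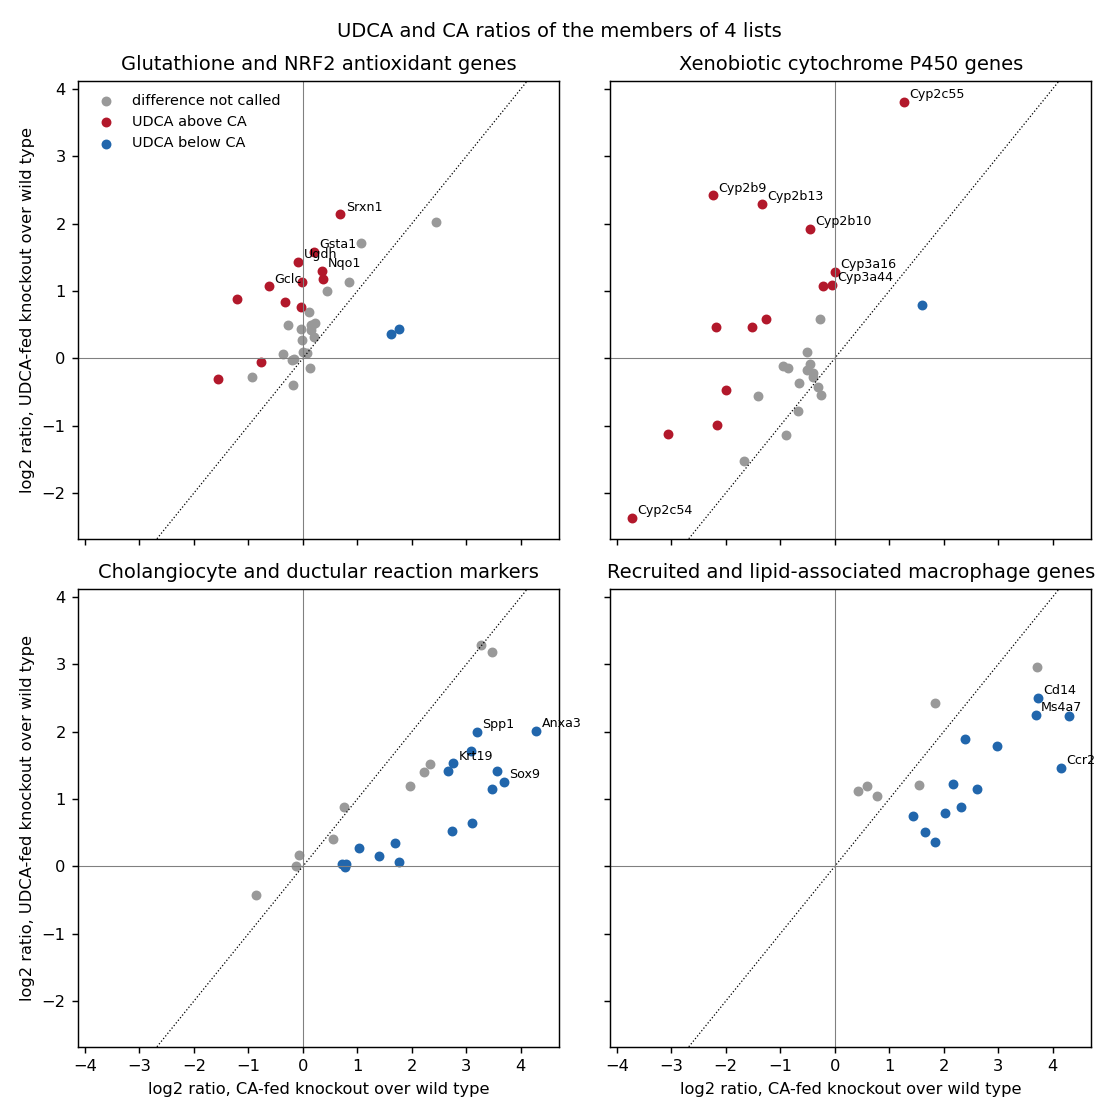
Log2 ratio to wild type with UDCA (vertical axis) against that with CA (horizontal axis) for the members of 4 lists, with the dotted line where both are equal; red and blue points had a called difference above or below CA. By the probes that stand for them, Cyp2b9, Cyp2b10 and Cyp2b13 lie above 0 with UDCA and below it with CA. The CA ratio of Cyp2b10 (-0.45) was not called. No bile duct marker has a red point.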

How the data were processed

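Feature Extraction 9.5.3.1 made the deposited scanner files, per the file headers, which give the mean spot intensity and local background intensity in green and red without normalization, and a log10 ratio of red over green after the software's own background and dye correction. The authors' deposited series values are log2 ratios per probe and array, normalized in a way not given in the sources used here; the CA columns ran opposite to knockout over wild type and were turned. Median values of these columns for the UDCA arrays lay between -0.024 and 0.028.

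The intensities were corrected with normexp (offset 50) and loess within each array in R 4.3.3 with limma 3.58.1. Of 45018 spots 1639 controls were left out, and flagged spots were set to missing (0.642% of tested UDCA values). Spots of a probe were averaged (41174 probes), and a probe was tested if knockout or wild-type signal was well above background on 5 or more of the 6 arrays of a diet (21662). Accessions gave 15521 of these a RefSeq symbol and 6141 kept the scanner file's name. The brightest probe stood for a gene. Of 62 called genes under the naming rule with another tested probe, all probes were called alike for 47, another was not called for 15, and 0 were opposite. The 15 were Abcc4, Ccr2, Chka, Col3a1, Etnk2, H2-Ab1, Hnf4a, Mcm3, Mt1, Phgdh, Slc39a14, Tef, Tgfbr2, Trib3 and Vwf. One limma fit of all 12 arrays held both diets and a dye effect per probe (9 residual and 5.94 prior degrees of freedom). The dye-swapped liver could not be identified (largest residual correlation 0.093), so all 6 arrays were counted, 2 of which share a liver, and p-values are somewhat too small. The fit was also run on simulated ratios with known changes, drawn without shared livers, and its outcome is not given here.

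Named genes were the 15 largest rises and 15 largest falls with 1 sign on 6 arrays, up to 4 called members per list, the 10 largest differences from CA each way without overlap, and a fixed set of 23 genes; some of them are not reported here. The 49 lists held 993 entries, 885 of them measured. The members, lists and rules were chosen with earlier results of these data known. Alternatives were other background corrections, scalings, filters, variance models, blocks and arrays left out. The promoter windows were read from RefSeq (GRCm38.p6), searched on both strands, with a gene counted if any of its start sites matched.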

Additional observations from a re-analysis of the deposited data

Results flagged for a closer look

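Of 208 genes named, 14 had an array far from the others among the UDCA arrays, where chance alone flags about 1 in 20. Array 6 was the far one for C1qa (-0.11), Lss (-2.26), Ltbp2 (3.28), Mcm6 (1.42, measured on 4 arrays), S100a9 (2.91), Slc51b (2.54) and Tfrc (2.49). Array 5 was far for Col1a1 (2.78) and Sult5a1 (-1.29), array 2 for Hsd3b4 (-3.61) and Bst2 (1.13), array 3 for Plet1 (4.09) and array 4 for Ctsc (-1.13) and Hmox1 (1.26).

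For 94 of the named genes the UDCA ratio differed from the CA ratio (limma adjusted p under 0.05). Over all genes 8.91% were called above CA and 18.8% below. The 10 largest differences each way were named because they were called, so part of the 94 was fixed by the naming rule. Of these 94, 63 were not called with median centring, 34 with scaling between arrays, 32 with the slide as a fixed block and 22 with the scanner software's log ratios. Above CA, beside the 10 largest, were detoxification and carrier genes: Cyp2c55 (2.54), Cyp2c54 (1.35), Cyp3a16 (1.29), Cyp3a44 (1.13), Gclc (1.70), Srxn1 (1.44), Gsta1 (1.37), Ugdh (1.51), Nqo1 (0.95), Sult5a1 (0.91), Nr1i3 (0.84), Slco1a1 (1.52), Slco1a4 (1.87) and Abcc3 (1.12). Lipid and sterol genes above CA were Cd36 (1.57), Acacb (1.56), Lpin1 (0.75), Lipc (0.89) and Hsd17b7 (0.54). Within slide 3 Hsd17b7 lay below CA (-0.15). Others above CA were Clec4f (3.19), Marco (1.62), Colec10 (2.01), the urinary protein probe LOC620807 (2.74), Saa3 (2.20), Saa2 (1.32), Slc1a2 (1.19), Slc17a8 (0.94), Ndrg1 (0.83), Tfrc (0.86) and Klf1 (0.70).

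The 10 largest above CA were Cyp2b9 (4.65), Cyp2b13 (3.64), Cyp8b1 (2.89), Cd5l (2.77), Cidec (2.74), Cyp2b10 (2.36), NAP014233-001 (2.33), Ugt2b1 (2.27), Serpina7 (2.25) and Mogat1 (2.23). Of these, Cyp2b9, Cyp2b13 and Cd5l were called with opposite signs in the 2 diets by the probes that stand for them. The other probe of Cyp2b13 was at -0.09 with CA.

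Below CA, bile duct, matrix and mesenchymal genes were Sox9 (-2.43), Anxa3 (-2.27), Krt19 (-1.22), Spp1 (-1.19), Cd44 (-1.21), Plet1 (-0.80), Cdh1 (-0.46), Sparcl1 (-1.84), Ccn2 (-1.15), Lum (-1.09), Col6a3 (-0.96), Pdgfrb (-0.85), S100a6 (-1.16), Vim (-0.80), Tgfb3 (-1.02), Smad7 (-1.17) and Fhl2 (-1.40). Within slide 4 Spp1 (0.33) and Plet1 (0.14) lay above CA. Immune and vessel genes below CA were Ccr2 (-2.69), Cd14 (-1.23), Ms4a7 (-1.44), Ms4a6b (-2.54), C1qb (-1.27), Cx3cl1 (-1.69), H2-DMb1 (-1.43), Ctsc (-1.38), Blnk (-1.10), Cd3g (-0.48), Oasl2 (-1.53), Psmb8 (-0.65), Usp18 (-0.58), Lpcat2 (-2.11) and Cd34 (-1.30). Cell cycle and early response genes below CA were Mcm6 (-1.29), Mcm3 (-0.80), Mcm4 (-0.77), Cdt1 (-0.61), Mki67 (-0.86), Phlda3 (-0.63), Egr1 (-2.03) and Egr2 (-1.17). Others below CA were Bcl6 (-3.00), Igfbp2 (-1.31), Celsr1 (-3.02), Bmf (-2.89), Tbx1 (-2.72), Tmem130 (-2.56), Rragd (-2.43), Ptpn13 (-2.38), Scara3 (-2.36), Phgdh (-1.83), Cyp39a1 (-1.0), Slc22a7 (-1.37), Slc51b (-0.82) and Ciart (-0.62).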

How the results depend on the processing

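Counts of genes changed most with the scaling. With median centring in place of loess, 1546 genes rose and 91 fell, the difference from CA was called above for 87 and below for 582, and the probes agreed for 26 of the named genes in place of 47. Requiring both channels well above background on all 12 arrays left 9303 genes, of which 1626 rose, 1307 were below CA and 26 agreed between probes. The authors' series table called 2270 differences above CA, and the slide as a fixed block called 458 above and 1195 below. Every other alternative kept these counts within 1.5 times. Leaving out 1 array at a time gave 2138 to 2846 rises, 1000 to 1503 falls, 977 to 1594 differences above CA, 2280 to 3317 below and 41 to 47 agreeing genes. The slide as a random block (consensus correlation 0.217) gave 2375 rises and 1103 falls. Deviations of same-numbered UDCA and CA arrays from their group means correlated between -0.222 and 0.491. These arrays share the knockout dye, which was not removed here, so the check cannot show whether the numbers pair livers. A replicate block by array number gave 2325 rises, 1183 falls and 1091 and 2412 differences; of 204 called named genes 197 stayed called and 7 did not, while 29 lost the call with the slide as a fixed block, 14 with it as a random block and 71 with median centring. Single values that changed sign were Kdr (0.05) and Ndufb5 (0.03) with median centring. For the difference from CA they were Susd4 (-0.74) with the scanner software's log ratios, Plet1 (0.10) with scaling between arrays, Mup1 (2.26) with the fixed slide block, Col1a2 (-0.55), H2-Ab1 (-0.72), Lpl (-0.63) and Tgfbi (-0.55) with the series table, and H2-Ab1 (-1.18) with probes averaged. The causes were not tested. Under median centring the median of 1 list, the exporters, changed side relative to that of all genes (from -0.16 to 0.13). Saturation of bright probes and dim red signal limit the precision of many ratios.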
